A study of Mus musculus with 12 samples.

Results

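The 44 genes described here mark endothelial cells, the lining of blood and lymphatic vessels, or carry the signals that guide vessel growth. They were taken from a list of gene symbols and not from measured values, and each symbol matched 1 row of the deposited count table. All 44 were among the 15804 genes of 55357 listed that had enough counts to be tested. Whole hearts of male mice were compared in 4 groups of 3 RNA sequencing libraries each. Wild-type (WT) C57BL/6J mice and Cd163-/- (KO) mice on that background, which lack the haemoglobin-scavenging receptor of tissue macrophages, had either sham surgery or transverse aortic constriction (TAC). TAC narrows the aorta around a 27-gauge needle and loads the left ventricle with pressure. Surgery took place at 8 weeks of age. How long after surgery the hearts were taken is not given by the labels. Each of the 12 libraries is labelled as its own sample, but no label ties a library to an animal, and a p-value here reflects only how far such libraries scatter.

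Endothelial cells receive growth signals through VEGF receptors and through the Tie receptors, which bind angiopoietins. Notch signalling between neighbouring cells sets which of them lead a new sprout, and ETS and SOX transcription factors hold the endothelial programme in place. In the heart, endothelial cells form a dense capillary bed that passes oxygen and fatty acids to muscle cells, and muscle cells are in turn a main source of VEGF. Apelin and its receptor, made largely by endothelial cells, also act on the growth of vessels and on the force of contraction.

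The libraries held 14150109 to 22602225 counts. The 44 genes together took 0.358% to 0.765% of the counts of a library. Cd163 itself stood at 13.7 to 29.5 CPM (counts scaled to library size by the TMM method) in the 6 WT libraries and at 3.14 to 4.6 CPM in the 6 KO libraries, so the labels and the targeted gene go the same way. Replicate 1 of the KO sham group stood apart from the other sham libraries: on log2(CPM + 1), 80.4% of all tested genes and 34 of the 44 lay nearer to the KO TAC mean than to the mean of the other KO sham libraries. Replicate 1 of the WT TAC group also lay nearer to the KO TAC mean for 33 of the 44 genes, against 55.3% of tested genes. Transcripts encoded in mitochondria held 44% to 51.3% of counts in the 3 KO TAC libraries and in KO sham replicate 1, and 24.8% to 36.9% in the other 8. Results that rest on KO sham replicate 1 are given with and without it. That library was singled out from these same values, and leaving it out narrows the spread of many genes in the shared fit. With library sizes and scaling taken from nuclear genes only, the genes called among the 44 were the same as with all genes. The part of the mitochondrial share in the results was not tested in any other way.

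The hearts held clear endothelial signal. All 6 defining endothelial markers (Pecam1, Cdh5, Cldn5, Emcn, Tie1 and Egfl7, themselves among the 44 genes) were detected in every library, and they summed to 559 to 742 CPM in WT sham, 560 to 917 CPM in WT TAC, 710 to 1140 CPM in KO sham and 916 to 1040 CPM in KO TAC. The sum does not stand for each marker. From WT sham to KO TAC the mean of Egfl7 went from 75.6 to 285 CPM and that of Tie1 from 106 to 168 CPM. Cldn5 went from 17.1 to 61.9 CPM and Emcn from 50.4 to 73.3 CPM. Pecam1 went from 177 to 163 CPM and Cdh5 from 205 to 211 CPM. In RNA from whole tissue, fewer cells of a type and less RNA per cell cannot be told apart. Per unit of exon length (as TPM, a level scaled by length and depth), the most abundant of the 44 in WT sham hearts was the water channel Aqp1 at 213 ± 34.7 TPM (SD, n = 3). The fatty acid binding protein Fabp4 followed at 198 ± 45.2 TPM, and then the ligand Vegfa at 196 ± 15.8 TPM, the ligand Vegfb at 175 ± 18.9 TPM and the caveolar coat protein Cav1 at 171 ± 16.1 TPM. Neighbours in this order differed by less than the SD of either, except Vegfa and Vegfb, which lay slightly further apart. The least abundant were the ligand Pgf at 2.43 ± 0.499 TPM, the angiopoietin Angpt2 at 1.98 ± 0.221 TPM and the proteoglycan Esm1 at 1.82 ± 0.0897 TPM, and the median of the 44 was 18.7 TPM.

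**Figure D1:**
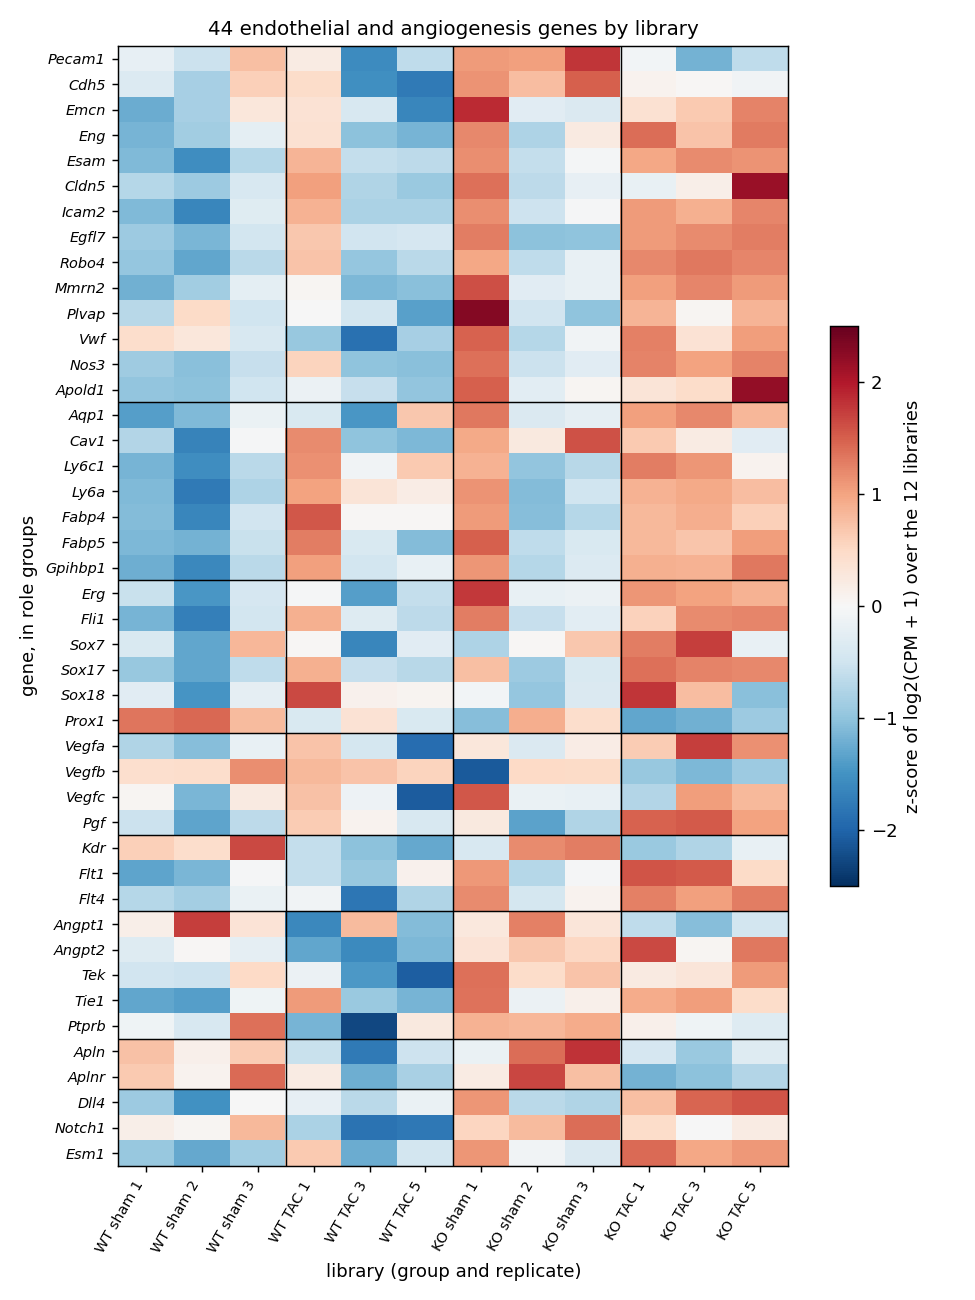
Levels of the 44 genes (rows, grouped by role) in each of the 12 libraries (columns), as z-scores of log2(CPM + 1) across libraries. Many rows, such as Eng, Egfl7, Nos3 and Flt4, are darkest red in the 3 KO TAC libraries and KO sham replicate 1. Others peak elsewhere, such as Pecam1, Cdh5 and Cav1 in KO sham replicate 3 and Fabp4 in WT TAC replicate 1. Vegfb is lowest in the 3 KO TAC libraries and KO sham replicate 1, and Prox1, Apln, Aplnr and Kdr run lower after TAC.

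Knockout and wild-type hearts were compared after TAC to ask how loss of Cd163 bears on the pressure-loaded heart. Here 7 of the 44 genes were higher in KO hearts and none was lower: the angiopoietin Angpt2, the receptor Flt4, the Notch pair Dll4 and Notch1, and the endothelial products Vwf, Mmrn2 and Apold1. Fold changes ran from 1.48-fold for Notch1 to 5.27-fold for Apold1, the latter resting on 1 KO TAC library. In this comparison edgeR called 8.63% of all tested genes higher, 11.7% lower and 20.4% in either direction, so the 15.9% of the 44 called lies below the share of all genes that changed. The balance of direction was less even than over all genes: 39 of 44 log2 fold changes were above 0, with a median of 0.53, against 49% of all tested genes and a median of -0.02. Library values did not overlap between the groups for 22 genes that were higher and 2 that were lower in KO TAC, against 22.7% and 24.3% of all tested genes. Without KO sham replicate 1, which belongs to neither group but enters the shared fit, 21 genes were called higher and 2 lower, 23 in all, against 18.5%, 22.1% and 40.7% of all genes. For single genes, "either fit" stands for edgeR with all 12 libraries or without KO sham replicate 1. Some of the added genes were also called under other settings, such as DESeq2.

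Among the angiopoietins, Angpt2 (chromosome 8, 18690263 to 18741562 in GRCm38, minus strand) encodes a ligand released by endothelial cells that in most settings opposes Angpt1 at the Tek receptor. In the order of replicates 1, 3 and 5, it stood at 2.46, 2.15 and 2.67 CPM in WT TAC and at 8.07, 4.38 and 7.15 CPM in KO TAC. The lowest KO library lay above every WT library. Angpt2 was 2.69-fold higher in KO, a log2 fold change of 1.43 ± 0.23 (SE), with an adjusted p of 0.0116, the smallest of the 44. The other ligand, Angpt1, which steadies vessels, stood at 8.85, 33 and 11.9 CPM in WT TAC and at 15.3, 12 and 16.8 CPM in KO TAC, where the groups overlapped and the log2 difference was -0.28 ± 0.46. Tek, the receptor of both, was 0.50 ± 0.17 higher on the log2 scale (adjusted p = 0.0584) and was called without KO sham replicate 1. The receptor Tie1 (0.39 ± 0.25) and the phosphatase Ptprb that restrains Tek (0.18 ± 0.17) did not pass the test in either fit.

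Among the VEGF receptors, Flt4 (chromosome 11, 49609263 to 49652739, plus strand), the receptor for Vegfc on lymphatic and growing endothelium, stood at 23.2, 14.1 and 19.1 CPM in WT TAC and at 34.1, 31.8 and 34.2 CPM in KO TAC. All 3 KO libraries lay above all 3 WT libraries and were close to each other. The difference was 1.77-fold (log2 0.83 ± 0.20, adjusted p = 0.0246). Flt1, which also yields a soluble form that traps VEGF, ran from 136 to 172 CPM in WT TAC and from 187 to 239 CPM in KO TAC, again without overlap, with a log2 difference of 0.55 ± 0.20 and an adjusted p of 0.0665. Kdr, the main signalling receptor for Vegfa, differed by 0.14 ± 0.21 and its groups overlapped. Flt1 was called without KO sham replicate 1, and Kdr was called in neither fit.

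The VEGF ligands differed in sign between the genotypes. Pgf, a ligand of Flt1, stood at 8.6, 6.45 and 4.95 CPM in WT TAC and at 13.1, 13.6 and 10.4 CPM in KO TAC. Its groups did not overlap, and the log2 difference was 0.89 ± 0.31 (adjusted p = 0.0615). Vegfb, a ligand of Flt1 that is abundant in heart muscle, stood at 161, 156 and 149 CPM in WT TAC and at 95.7, 90.9 and 97 CPM in KO TAC. Every KO library was far below every WT library, with a log2 difference of -0.72 ± 0.25 and an adjusted p of 0.0583. Without KO sham replicate 1, whose own Vegfb level of 68 CPM was the lowest of all 12 libraries, Vegfb was called lower (adjusted p = 0.00112) and Pgf higher (adjusted p = 0.01). Vegfa, the principal VEGF, was 0.55 ± 0.23 higher with overlapping groups and was likewise called without that library, while Vegfc differed by 0.20 ± 0.21. The 8 cardiomyocyte markers, which stand for a cell type that makes much of the Vegfa and Vegfb, summed to 43700 to 47600 CPM in WT TAC and 33900 to 37400 CPM in KO TAC, and their part in these differences was not tested.

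Of the 3 Notch and tip cell genes, Dll4 and Notch1 were called higher in KO TAC and Esm1 did not pass the test. Dll4 (chromosome 2, 119325784 to 119335962, plus strand), the Notch ligand of sprouting tip cells and arteries, stood at 23.1, 19.5 and 23.4 CPM in WT TAC and at 32.3, 41.1 and 42.9 CPM in KO TAC. Notch1 (chromosome 2, 26457903 to 26516663, minus strand), its receptor, stood at 27.5, 21.4 and 21.7 CPM against 36.8, 33 and 34.8 CPM. In both genes the lowest KO library exceeded the highest WT library. The differences were 1.76-fold for Dll4 (log2 0.82 ± 0.26, adjusted p = 0.047) and 1.48-fold for Notch1 (log2 0.57 ± 0.14, adjusted p = 0.0262). Exons of both genes overlap exons of genes on the opposite strand in the annotation, and since strand use in counting is not given, reads of the overlapping stretches cannot be assigned to 1 gene. Esm1, a proteoglycan secreted by tip cells, stood at 3.88, 1.94 and 2.61 CPM in WT TAC and at 4.96, 4.3 and 4.46 CPM in KO TAC, a log2 difference of 0.70 ± 0.28 (adjusted p = 0.0813) that was called without KO sham replicate 1.

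**Figure D2:**
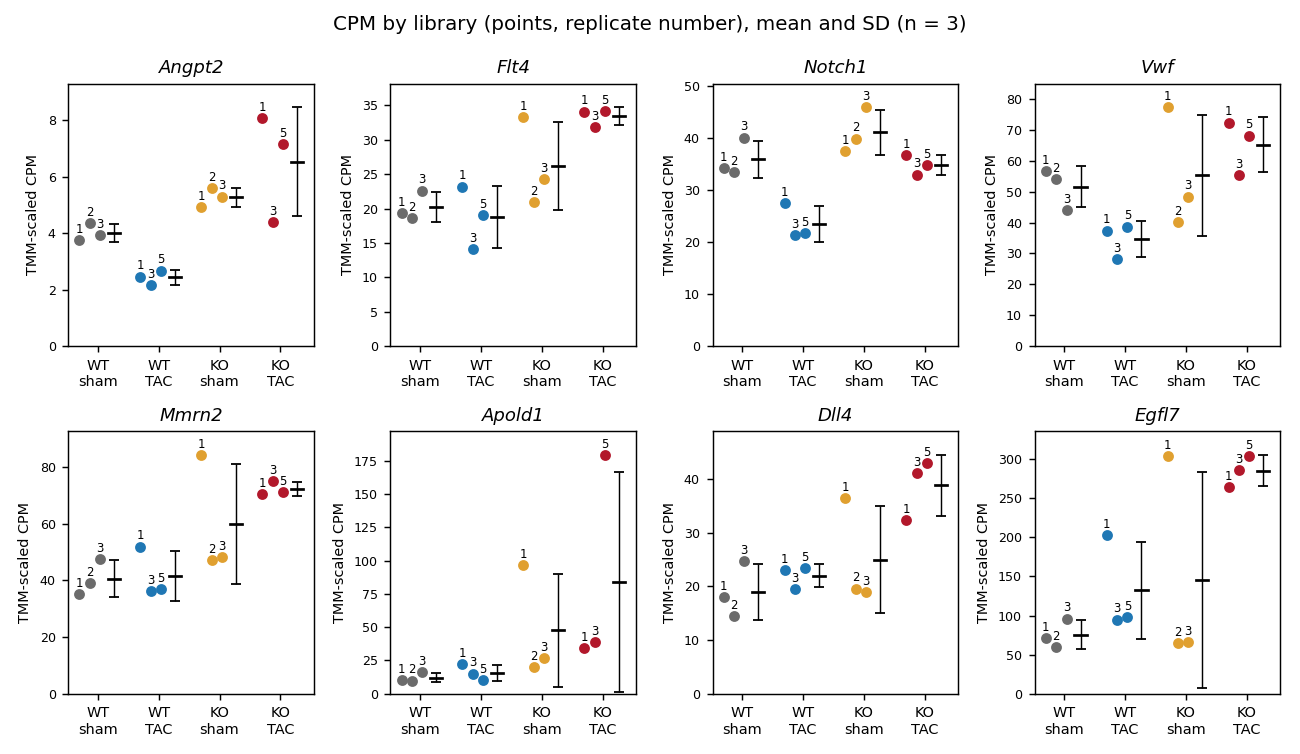
TMM-scaled CPM (vertical axes, from 0) by group for the 7 genes called higher in KO TAC than in WT TAC, and for Egfl7, in which points are libraries with their replicate number and bars give the mean and SD of 3 libraries. KO TAC lies above WT TAC without overlap in all 8 panels, and KO sham replicate 1 lies above the other sham libraries for Egfl7, Mmrn2, Vwf, Apold1, Flt4 and Dll4.

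The 14 genes of the endothelial surface, junctions and matrix all had log2 differences above 0 between KO and WT after TAC, with a median of 0.79, and 11 of them had no overlap between the groups. Vwf (chromosome 6, 125546774 to 125686679, plus strand), the platelet-binding protein stored in endothelial granules, stood at 37.4, 28.2 and 38.7 CPM in WT TAC and at 72.4, 55.3 and 68.2 CPM in KO TAC. Mmrn2 (chromosome 14, 34375465 to 34404287, plus strand), a matrix protein that binds VEGF, stood at 51.9, 36.1 and 36.9 CPM against 70.3, 74.9 and 71.1 CPM. Vwf was 1.88-fold higher (log2 0.91 ± 0.23, adjusted p = 0.0277) and Mmrn2 1.73-fold higher (log2 0.79 ± 0.23, adjusted p = 0.0377). Apold1 (chromosome 6, 134981718 to 134986836, plus strand), an early response gene of endothelium, stood at 22.3, 15.2 and 10.3 CPM in WT TAC and at 34.4, 38.6 and 179 CPM in KO TAC. The groups did not overlap, but KO TAC replicate 5 was several times the other KO TAC libraries. The difference in Apold1 was 5.27-fold (log2 2.40 ± 0.71, adjusted p = 0.038), and without that library its log2 difference was 1.20 (adjusted p = 0.166, in a range of 0.00268 to 0.166 over the alternatives).

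Size of change varied widely inside that group. At one end stood the adhesion molecule Pecam1 (0.01 ± 0.15), the junction cadherin Cdh5 (0.23 ± 0.19) and the sialomucin Emcn (0.51 ± 0.28), none of them called in either fit. Beside Apold1, log2 differences above 1 were seen in Egfl7, Robo4, Nos3 and Cldn5. Egfl7, a secreted protein of growing endothelium, stood at 203, 94.7 and 97.5 CPM in WT TAC and 264, 286 and 304 CPM in KO TAC (log2 1.11 ± 0.53, adjusted p = 0.136). The guidance receptor Robo4 stood at 95.2, 38.2 and 45.1 CPM against 123, 131 and 125 CPM (1.08 ± 0.36, adjusted p = 0.0514), and Nos3, the endothelial nitric oxide synthase, at 53.7, 23.2 and 22.7 CPM against 77.6, 68.5 and 77.5 CPM (1.17 ± 0.40, adjusted p = 0.0547). In these 3 genes the highest WT library was replicate 1, the WT TAC library that stands apart. Without KO sham replicate 1, Egfl7, Robo4, Nos3, the TGF-beta coreceptor Eng, the junction proteins Esam and Icam2 and the fenestral diaphragm protein Plvap were also called higher, which makes 10 of the 14. Egfl7 shares exon sequence with the gene Agpat2 and with microRNA genes in the annotation, and Nos3 with Atg9b.

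Cldn5, the tight junction claudin of endothelium, stood at 58.6, 15.9 and 13.9 CPM in WT TAC and at 24.3, 30.7 and 131 CPM in KO TAC. As for Apold1, KO TAC replicate 5 was by far the highest, and unlike Apold1 the groups overlapped. Its log2 difference of 1.07 ± 0.74 did not pass the test in either fit.

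The 7 capillary and lipid handling genes gave no call in either fit after TAC, and their median log2 difference was 0.22. Aqp1 stood at 349, 261 and 466 CPM in WT TAC and at 513, 539 and 487 CPM in KO TAC, the only one of the 7 without overlap (log2 0.52 ± 0.25, adjusted p = 0.143). Fabp4 (0.07 ± 0.37), the surface antigens Ly6c1 (0.16 ± 0.31) and Ly6a (0.22 ± 0.33) and Cav1 (0.10 ± 0.19) lay near 0, while Fabp5 (0.40 ± 0.34) and Gpihbp1 (0.62 ± 0.38), the protein that holds lipoprotein lipase on capillaries, were further up with overlapping groups. Fabp4 is also an adipocyte gene, and the 6 adipocyte markers summed to 0.0983 to 0.806 CPM in WT TAC, with Adipoq, Plin1, Retn and Lep at 0 in replicate 1 and Retn and Lep at 0 in replicate 5, and to 9.08 to 11 CPM in KO TAC.

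Among the transcription factors, Sox17, an arterial and endothelial SOX factor, stood at 35.2, 14.7 and 13.7 CPM in WT TAC and at 46.6, 43.3 and 42.1 CPM in KO TAC (log2 1.05 ± 0.39, adjusted p = 0.0697). The ETS factor Erg ran from 27.5 to 37.8 CPM in WT TAC and from 46.5 to 49.2 CPM in KO TAC (0.55 ± 0.19, adjusted p = 0.0596). Neither gene's groups overlapped, and both were called without KO sham replicate 1. The ETS factor Fli1 (0.52 ± 0.30), and the SOX factors Sox7 (0.36 ± 0.18) and Sox18 (-0.01 ± 0.22) were called in neither fit.

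Prox1, the factor that specifies lymphatic endothelium and is also made by heart muscle cells, went the other way. It stood at 29.8, 49 and 29.8 CPM in WT TAC and at 15.9, 17.1 and 20.7 CPM in KO TAC, with no overlap. The log2 difference was -1.01 ± 0.39 (adjusted p = 0.0771), and Prox1 was called lower without KO sham replicate 1. Flt4, which shares lymphatic endothelium with Prox1, was higher, as described above. The 5 other lymphatic markers (Lyve1, Pdpn, Mmrn1, Reln and Ccl21a) summed to 41.1 to 59.9 CPM in WT TAC and 76.5 to 89.7 CPM in KO TAC, so Prox1 ran against their sum. By gene, only Lyve1 was called with all 12 libraries (log2 0.64 ± 0.19, adjusted p = 0.0371). Mmrn1 (0.69 ± 0.28), Reln (0.90 ± 0.31) and Ccl21a (0.86 ± 0.31) were not, and Pdpn lay near 0 (-0.02 ± 0.37).

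The apelin genes did not separate the genotypes after TAC: the ligand Apln differed by 0.23 ± 0.29 and the receptor Aplnr by -0.24 ± 0.26 on the log2 scale, with overlapping groups in both.

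**Figure D3:**
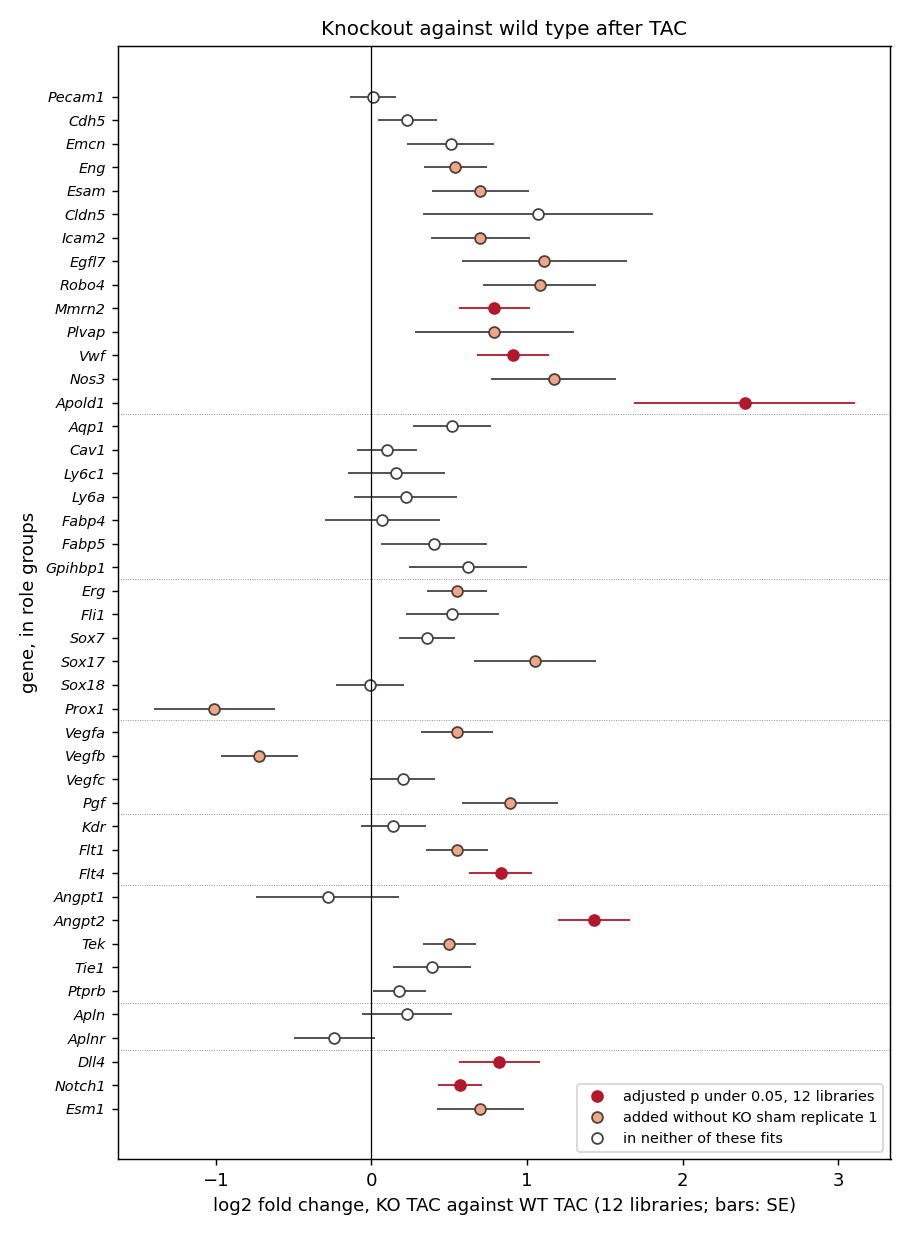
Log2 fold change of KO TAC against WT TAC (horizontal axis, bars are SE from the fit of 12 libraries) for all 44 genes in role order. Filled dark red points mark the 7 genes called with all 12 libraries, pale points the 16 added when KO sham replicate 1 is left out, and open points the rest, with 39 of 44 points to the right of 0.

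Each of the 7 calls leaned on particular libraries. None was made when WT TAC replicate 3 or KO TAC replicate 1 was left out, where the adjusted p of Angpt2 was 0.0517 and 0.0568, and only that of Angpt2 was made without WT TAC replicate 5, KO TAC replicate 3 or KO TAC replicate 5. Without WT sham replicate 1 or 2, 4 calls were made, and without WT TAC replicate 1, 20. Over all 22 alternative settings the adjusted p of Angpt2 ran from 3.62e-06 to 0.0568 and its log2 difference from 1.21 to 1.65. Over the 23 genes called without KO sham replicate 1, adjusted p-values in that fit ran up to 0.0483, and across alternatives from 2.76e-07 to 0.546. With library totals in place of TMM scaling 3 genes were called higher (Vwf, Apold1 and Angpt2) and 1 lower (Vegfb), in place of 7 and 0.

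Marker lists of several other cell types differed between KO TAC and WT TAC. The 8 markers of pericytes, the mural cells that wrap capillaries, summed to 1040 to 1130 CPM in WT TAC and to 682 to 730 CPM in KO TAC, and KO sham replicate 1 stood at 669 CPM. The 8 macrophage markers overlapped between the groups, at 131 to 194 CPM in WT TAC and 180 to 185 CPM in KO TAC. So did the 4 smooth muscle markers, at 109 to 244 CPM against 159 to 193 CPM. The 5 endocardial markers, of the endothelium that lines the heart chambers and with Vwf among them, summed to 71.9 to 85.4 CPM in WT TAC (Hapln1 at 0 in replicate 1) and to 119 to 156 CPM in KO TAC. The 7 fibroblast markers summed to 692 to 1120 CPM against 1230 to 1460 CPM, and the 5 mesothelial markers to 4.78 to 7.67 CPM (Upk3b and Lrrn4 at 0 in replicate 1) against 26.8 to 39.3 CPM. The 6 lymphocyte markers were low but apart, at 1.24 to 2.46 CPM in WT TAC (Cd3e at 0 in replicate 3) and 2.97 to 5.09 CPM in KO TAC. In KO TAC, Ncr1 was at 0 in replicates 1 and 3 and Cd3e in replicate 1. The part of these lists in the endothelial values was not tested.

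Promoter sequence was examined across the 44 genes, whichever way they changed, since ETS factors such as Erg and Fli1 bind a GGAA core. RefSeq promoters of GRCm38.p6 were at hand for 24 of the 44 genes. In the 250 bases before the start, the letters AGGAAG were present on either strand in 9 of the 24 (37.5%) and in 29.2% of the 27025 promoters in the table. The windows of Eng and Flt1, higher after TAC in KO hearts without KO sham replicate 1, each held 2 matches. Of other genes called higher only in that fit, Egfl7 held 3 and Robo4 held 1, while Erg, Vegfa, Pgf, Tek and Esm1 held none. That of Apln, which differed little between genotypes, held 1. Of the 7 genes called with all libraries, 4 had a window in the table, and that of Apold1 held 1 match while those of Dll4, Flt4 and Notch1 held none. The windows of Apold1, Flt4 and Notch1 lie inside the GENCODE gene spans given above, so they follow the outermost start of those genes. Capitals mark the match, written CTTCCT where it lies on the other strand. The windows are chr2:32646345-32646594 (plus strand) for Eng, chr5:147726012-147726261 (minus strand) for Flt1 and chrX:48034854-48035103 (minus strand) for Apln, each printed 5′ to 3′.
Eng: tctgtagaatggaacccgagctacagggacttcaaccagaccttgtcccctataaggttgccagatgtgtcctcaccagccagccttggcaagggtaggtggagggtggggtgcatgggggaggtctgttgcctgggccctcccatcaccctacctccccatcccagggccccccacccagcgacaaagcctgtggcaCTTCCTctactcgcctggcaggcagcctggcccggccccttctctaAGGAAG
Flt1: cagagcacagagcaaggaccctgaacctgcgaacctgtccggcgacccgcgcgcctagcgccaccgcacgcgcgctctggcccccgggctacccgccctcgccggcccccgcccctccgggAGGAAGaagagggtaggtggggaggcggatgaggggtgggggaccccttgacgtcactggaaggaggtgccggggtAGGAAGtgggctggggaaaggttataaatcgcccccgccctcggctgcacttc
Apln: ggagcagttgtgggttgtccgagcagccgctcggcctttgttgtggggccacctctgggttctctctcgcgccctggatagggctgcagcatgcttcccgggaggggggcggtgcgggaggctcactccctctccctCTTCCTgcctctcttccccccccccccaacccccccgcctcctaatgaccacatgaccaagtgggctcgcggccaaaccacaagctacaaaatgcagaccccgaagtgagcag
The SOX-type letters AACAAT were found in 2 of the 24 windows (8.33%, against 9.65% of all promoters) and the hypoxia response core ACGTG also in 2 (8.33% against 16.6%). A match describes the letters of the window and shows no binding.

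The effect of TAC in WT hearts was compared to see which vessel genes respond to pressure load with Cd163 intact. With all 12 libraries edgeR called none of the 44 genes, against 0.0316% of all genes tested. At an unadjusted p under 0.05 there were 13 of 44, against 16.2% of all genes, while DESeq2 called 5 (3.33% of all genes) and limma-voom 10 (6.8%). Groups did not overlap for 7 genes that were higher and 6 that were lower after TAC, against 13.4% and 13.7% of all genes. Without KO sham replicate 1, 8 genes were called, against 6.53% of all genes (3.4% higher and 3.14% lower): Ly6a, Ly6c1, Fabp4 and Gpihbp1 rose, and Prox1, Kdr, Apln and Notch1 fell. The adjusted p-values of these 8 ran from 0.0101 to 0.0398 in that fit and from 0.00467 to 0.636 across alternatives.

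Of the role groups, the capillary and lipid handling genes had the highest median log2 fold change, at 1.02, with all 7 above 0. Within it, Cav1 (0.12 ± 0.19) and Aqp1 (0.22 ± 0.25) changed little. Upward estimates were also seen in other groups, such as Sox17 (0.85 ± 0.39) and Egfl7 (0.80 ± 0.53), called in neither fit. Ly6a, a surface antigen of mouse endothelium and progenitors, stood at 71, 52.1 and 83.5 CPM in WT sham (replicates 1, 2 and 3) and at 193, 139 and 131 CPM in WT TAC. Ly6c1 stood at 99.8, 84.9 and 122 CPM against 258, 155 and 211 CPM. In both the groups were apart, and the log2 fold changes were 1.16 ± 0.34 and 1.02 ± 0.32 (adjusted p = 0.18 and 0.191 with all libraries). The near-identical gene Ly6c2, whose reads could be shared with Ly6c1, stood at 0.0454 to 0.945 CPM across the 12 libraries. Fabp4 stood at 477, 372 and 624 CPM in WT sham and at 1530, 778 and 781 CPM in WT TAC (1.07 ± 0.38), and Gpihbp1 at 44, 35.2 and 58.9 CPM against 149, 66.5 and 76.9 CPM (1.08 ± 0.39). In both, WT TAC replicate 1 stood highest and the groups did not overlap. Adipocyte markers summed to no more than 0.806 CPM in the WT TAC libraries that held Fabp4 at 778 CPM or more.

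The junction protein Esam stood at 53.7, 44 and 63.9 CPM in WT sham and at 127, 67.2 and 65.8 CPM in WT TAC, a difference of 0.69 ± 0.31 that did not pass the test in either fit. Of the growth factors, Pgf stood at 4.55, 2.86 and 4.28 CPM in WT sham and at 8.6, 6.45 and 4.95 CPM in WT TAC. The groups did not overlap, and the log2 fold change of 0.78 ± 0.32 did not pass the test in either fit (adjusted p = 0.272 and 0.0678). Vegfa (0.08 ± 0.23), Vegfb (0.00 ± 0.25) and Vegfc (-0.03 ± 0.21) lay near 0.

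Values were lower after TAC in WT hearts for the receptors Kdr and Aplnr, a Notch gene, transcription factor Prox1, signalling ligands and Vwf. Kdr stood at 255, 245 and 341 CPM in WT sham and at 185, 164 and 153 CPM in WT TAC (-0.74 ± 0.21, adjusted p = 0.179). Notch1 stood at 34.3, 33.5 and 40.1 CPM in WT sham and at 27.5, 21.4 and 21.7 CPM in WT TAC (-0.61 ± 0.14, adjusted p = 0.123). In both genes all TAC libraries were below all sham libraries. Prox1 stood at 93.8, 101 and 65.7 CPM against 29.8, 49 and 29.8 CPM (-1.26 ± 0.39, adjusted p = 0.19), and Apln at 20.1, 15.5 and 19.2 CPM against 11.5, 6.67 and 11.7 CPM (-0.88 ± 0.29, adjusted p = 0.211), also without overlap. Angpt2 stood at 3.76, 4.36 and 3.93 CPM in WT sham and at 2.46, 2.15 and 2.67 CPM in WT TAC. Its groups were apart, and its log2 fold change of -0.73 ± 0.23 did not pass the test with all libraries (adjusted p = 0.193) or without KO sham replicate 1 (0.0669). Vwf was also lower without overlap (-0.57 ± 0.23, adjusted p = 0.268), while Aplnr was lower with overlapping groups (-0.72 ± 0.26, adjusted p = 0.227). Vwf and Aplnr were called in neither fit. The 5 lymphatic markers other than Prox1 and Flt4 summed to 47.6 to 57.4 CPM in WT sham and 41.1 to 59.9 CPM in WT TAC, with overlap.

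**Figure D4:**
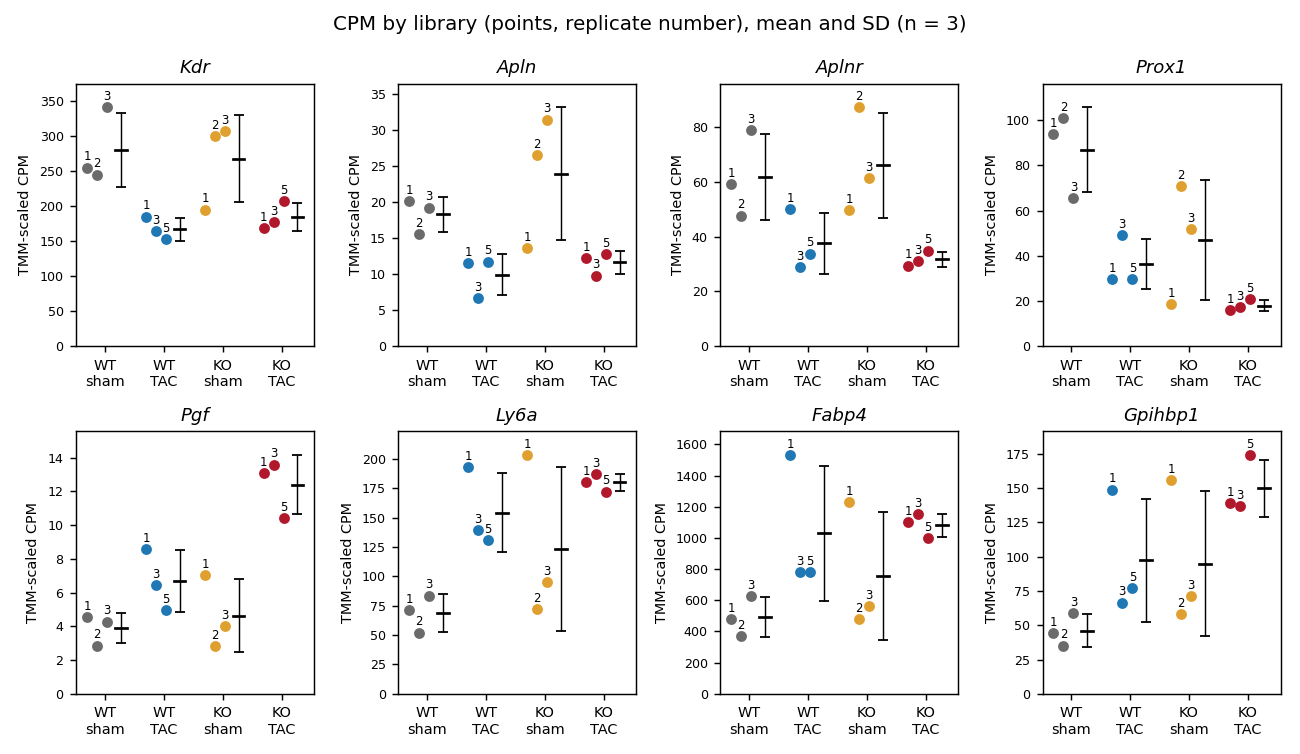
TMM-scaled CPM (vertical axes, from 0) by group for 8 genes with changes after TAC, in which points are libraries with their replicate number and bars give the mean and SD of 3 libraries. Kdr, Apln, Aplnr and Prox1 are lower in both TAC groups than in most sham libraries, while Pgf, Ly6a, Fabp4 and Gpihbp1 are higher, and KO sham replicate 1 lies nearer to the KO TAC mean than the other KO sham libraries do in all 8 panels.

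In KO hearts, TAC against sham gave no call among the 44 genes or among all tested genes (0%) with edgeR on the 12 libraries. At an unadjusted p under 0.05 there were 10 of 44, against 30.9% of all genes, while DESeq2 called 5 (13.7% of all genes) and limma-voom 34 (63%). KO sham replicate 1 decides this comparison. It was singled out because its values lay near KO TAC, so leaving it out widens the difference by construction. Calls made without that library are no independent support for a TAC effect. Without it, 20 genes rose and 5 fell, 25 of 44 against 47.6% of all tested genes (22.4% higher and 25.2% lower), and the median log2 fold change of the 44 went from 0.28 to 0.51 while that of all genes was 0.01. Adjusted p-values of the 25 ran from 0.000272 to 0.0466 in that fit and from 4.08e-07 to 1 across alternatives. Groups of all 12 libraries did not overlap for 4 genes that were higher and 7 that were lower, against 11.6% and 10.8% of all genes. The lower ones included the endothelial markers Pecam1 (-0.35 ± 0.15) and Cdh5 (-0.31 ± 0.19) and the phosphatase Ptprb (-0.20 ± 0.17). None of these was called in either fit, while limma-voom called Pecam1 and Cdh5 lower. The endothelial markers thus did not all move the same way.

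Pgf was higher in every KO TAC library than in every KO sham library. It stood at 7.03, 2.83 and 4.03 CPM in KO sham and at 13.1, 13.6 and 10.4 CPM in KO TAC. The log2 fold change was 1.43 ± 0.32 with all libraries (adjusted p = 0.103) and 1.84 ± 0.28 without that library (adjusted p = 0.000428). Sox17 stood at 32.5, 12 and 16.6 CPM in KO sham and at 46.6, 43.3 and 42.1 CPM in KO TAC. Robo4 stood at 109, 45.9 and 58.8 CPM against 123, 131 and 125 CPM. KO sham replicate 1 was closer to the TAC libraries than to its own group in both. Their log2 fold changes were 1.12 ± 0.39 and 0.83 ± 0.36, and without that library both rose, by 1.61 ± 0.35 and 1.26 ± 0.32.

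Egfl7 was the gene most changed by leaving that library out. It stood at 304, 65 and 66.4 CPM in KO sham and at 264, 286 and 304 CPM in KO TAC, so KO sham replicate 1 was level with the highest TAC library. The log2 fold change was 0.97 ± 0.53 with it and 2.11 ± 0.32 without it (adjusted p = 0.222 and 0.00041). The other genes that rose without it were Esam, Icam2, Mmrn2, Plvap, Vwf, Nos3 and Apold1 of the surface and matrix group, Ly6c1, Ly6a, Fabp4, Fabp5 and Gpihbp1 of the capillary group, Fli1, the receptors Flt1 and Flt4, and Dll4. Their log2 fold changes in that fit lay between 0.50 (Flt1) and 1.84 (Apold1).

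The apelin pair fell in KO hearts without KO sham replicate 1. Apln stood at 13.6, 26.5 and 31.4 CPM in KO sham and at 12.2, 9.78 and 12.8 CPM in KO TAC, and Aplnr at 49.8, 87.3 and 61.4 CPM against 29.4, 31.1 and 34.9 CPM. Neither gene's groups overlapped even with that library. The log2 fold changes with all libraries were -1.04 ± 0.29 and -1.06 ± 0.26, each with an adjusted p of 0.103. Prox1 stood at 18.6, 70.8 and 51.7 CPM in KO sham and at 15.9, 17.1 and 20.7 CPM in KO TAC (-1.39 ± 0.39), and Kdr at 195, 300 and 307 CPM against 169, 177 and 207 CPM (-0.54 ± 0.21). Both overlapped through KO sham replicate 1 and fell without it, as did Vegfb. Notch1 stood at 37.5, 39.9 and 45.9 CPM in KO sham and at 36.8, 33 and 34.8 CPM in KO TAC without overlap (-0.24 ± 0.14), and was called in neither fit. Angpt1 stood at 25, 42.4 and 25.4 CPM in KO sham and at 15.3, 12 and 16.8 CPM in KO TAC, without overlap, with a log2 fold change of -1.07 ± 0.46 that was called in neither fit.

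**Figure D5:**
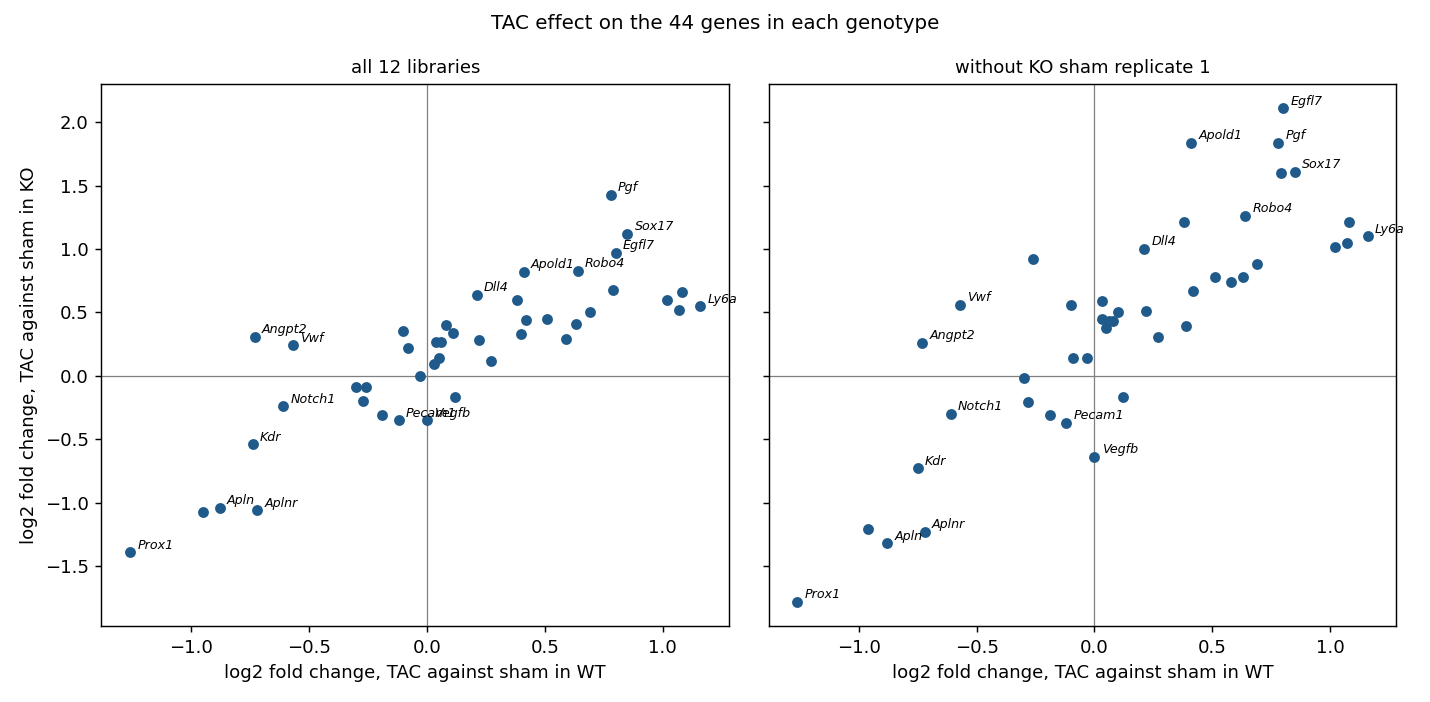
Log2 fold change after TAC in WT (horizontal axis) against that in KO (vertical axis) for the 44 genes, with all 12 libraries on the left and without KO sham replicate 1 on the right. Leaving that library out moves Egfl7 from 0.97 to 2.11 on the vertical axis, while Prox1, Apln, Aplnr and Kdr stay in the lower left and Angpt2 and Vwf in the upper left.

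After sham surgery edgeR called none of the 44 genes between KO and WT, against 0.00633% of all tested genes, and none without KO sham replicate 1 (0.241%). At an unadjusted p under 0.05 there were 12 of 44, against 13.5% of all genes, while DESeq2 called 0 (1.39%) and limma-voom 13 (14.9%). Even so, 40 of the 44 log2 differences were above 0, with a median of 0.39, against 50.7% of all genes and a median of 0.01. The median was 0.22 without KO sham replicate 1. Groups did not overlap for 10 genes, all higher in KO, against 12.2% of all genes higher and 10.4% lower. All 14 surface, junction and matrix genes and all 7 capillary genes were above 0 with all libraries, but Egfl7 (-0.20), Plvap (-0.39) and Vwf (-0.22) were below 0 without KO sham replicate 1.

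Angpt2 was among the 10, at 4.91, 5.59 and 5.29 CPM in KO sham against 3.76, 4.36 and 3.93 CPM in WT sham, with a log2 difference of 0.39 ± 0.22 (adjusted p = 0.429). It changed little without KO sham replicate 1, to 0.44 ± 0.24 (adjusted p = 0.608). Apold1 stood at 96.4, 20 and 26.8 CPM in KO sham against 10.2, 9.85 and 16.1 CPM in WT sham (1.98 ± 0.70), and Esam at 146, 67.6 and 85.6 CPM against 53.7, 44 and 63.9 CPM (0.89 ± 0.31). In both, all KO libraries were above all WT libraries and replicate 1 was the highest. Robo4, at 109, 45.9 and 58.8 CPM against 38.3, 31.8 and 44.7 CPM, and Cav1, at 423, 380 and 468 CPM against 326, 282 and 364 CPM, were also apart, with log2 differences of 0.89 ± 0.36 and 0.39 ± 0.19. Erg stood at 57.2, 36.4 and 36.7 CPM against 33.4, 27 and 34.5 CPM, and Esm1 at 4.5, 3 and 2.72 CPM against 2.17, 1.91 and 2.24 CPM, again without overlap. Fli1, at 52.4, 25.7 and 29 CPM against 20.4, 16.4 and 26.9 CPM, Gpihbp1, at 156, 58.2 and 71.2 CPM against 44, 35.2 and 58.9 CPM, and Ly6a, at 203, 71.9 and 94.8 CPM against 71, 52.1 and 83.5 CPM, overlapped and lay between 0.74 and 1.04. None of these passed the test, and the smallest adjusted p of the 44 was 0.3, for Esam.

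The interaction asks whether the TAC effect differs between the genotypes. edgeR called none of the 44 genes and none of all tested genes (0%), DESeq2 called 0 (0.595%) and limma-voom 12 (31.8%). At an unadjusted p under 0.05 there were 2, against 9.19% of all genes: Angpt2 and Vwf. Angpt2 had a log2 fold change of -0.73 ± 0.23 in WT and 0.31 ± 0.22 in KO, and the difference was 1.04 ± 0.32 (adjusted p = 0.428). Vwf did not pass the test either: its change was -0.57 ± 0.23 in WT and 0.24 ± 0.23 in KO, and the difference was 0.81 ± 0.33 (adjusted p = 0.522). Vwf stood at 56.7, 54.1 and 44.1 CPM in WT sham and at 77.3, 40.1 and 48.4 CPM in KO sham. Next in order of p were Notch1 (0.38 ± 0.20), Flt4 (0.45 ± 0.28), Pgf (0.65 ± 0.45) and Ly6a (-0.62 ± 0.47), none of which passed the test with or without KO sham replicate 1. Without that library 3 genes passed, against 12.1% of all genes: Vwf (1.13 ± 0.24, adjusted p = 0.0145) and Egfl7 (1.31 ± 0.40, adjusted p = 0.0496) had a higher log2 TAC effect in KO than in WT, and Vegfb (-0.64 ± 0.19, adjusted p = 0.0418) a lower one. Adjusted p-values of these 3 ran from 7.96e-05 to 1 across alternatives.

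Of 63 further endothelial and angiogenesis genes listed for comparison, 62 were tested (Ackr1 was not). KO against WT after TAC called 16 of the 62 higher and 2 lower, against 8.63% and 11.7% of all tested genes, with the smallest p for the adhesion molecule Icam1 (1.25 ± 0.22, adjusted p = 0.016), the flow-responsive factor Klf4 (1.35 ± 0.24, 0.0163) and the semaphorin receptor Plxnd1 (1.26 ± 0.24, 0.0165). Both genes called lower handle fatty acids and are also made by heart muscle: the transporter Cd36 (-1.28 ± 0.26, adjusted p = 0.0176) and the lipase Lpl (-1.31 ± 0.31, 0.0236), the partner of Gpihbp1. Higher genes closest in role to the 44 were the VEGF coreceptors Nrp1 (0.67 ± 0.16) and Nrp2 (0.70 ± 0.16), the Notch ligand Jag2 (1.19 ± 0.37), the receptor Acvrl1 that works with Eng (0.89 ± 0.25) and the factor Klf2 (1.52 ± 0.32). The angiogenesis inhibitors Vash1 (0.84 ± 0.25, adjusted p = 0.0382) and Thbs1 (1.20 ± 0.36, 0.04) were also called higher. After sham surgery 1 of the 62 was called, the angiogenesis inhibitor Cnmd, which was lower in KO (-2.95 ± 0.36, adjusted p = 0.0479) at 0.136 to 0.205 CPM against 1.04 to 1.64 CPM in WT, which is only a few counts in each KO library. Thbs1 (1.91 ± 0.37), which inhibits angiogenesis, and the lipid receptor S1pr1 (1.30 ± 0.29) came next and did not pass the test.

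Neither TAC comparison nor the interaction called any of the 62 with all libraries. In WT the smallest p belonged to the angiogenesis inhibitor Vash1 (-1.26 ± 0.25, adjusted p = 0.0805), Nrp2 (-0.67 ± 0.15, 0.123) and Cnmd (-1.35 ± 0.31, 0.123), in KO to Smad7 (0.70 ± 0.16), Icam1 (0.94 ± 0.22) and the Notch target Hey1 (1.17 ± 0.30), each with 0.103, and in the interaction to Cnmd (2.83 ± 0.51, 0.132), Reln (1.62 ± 0.43, 0.375) and Sema3g (-0.80 ± 0.26, 0.449). Without KO sham replicate 1 the counts of higher and lower genes were 6 and 7 for TAC in WT (3.4% and 3.14% of all genes), 27 and 8 for TAC in KO (22.4% and 25.2%), 27 and 2 for KO against WT after TAC (18.5% and 22.1%), and 6 and 2 for the interaction (4.66% and 7.45%).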

How the data were processed

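Poly(A) RNA of heart tissue was sequenced as 12 libraries of 150 bp pairs, per the labels' protocols. The authors deposited 1 table of raw read counts per Ensembl gene, not normalized, and the submitters' processing notes name HISAT2 without a version. The counter, genome build, annotation and strand setting: not given in the sources used here. Gene symbols came from GENCODE on GRCm38, which matched 52081 of 55357 identifiers.

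These raw counts went into edgeR 4.0.16 (R 4.3.3). After filterByExpr and TMM scaling, 1 robust quasi-likelihood model with 4 group means was fitted to all 12 libraries, leaving 8 residual degrees of freedom. P-values of 5 comparisons were adjusted over all tested genes by Benjamini-Hochberg, with a threshold of 0.05. Every adjusted p is from this test unless another tool is named. Scripts were tested on simulated counts. Alternatives were DESeq2 1.42.0, limma 3.58.1 (voom with sample weights), other scalings and filters, the replicate block, and leaving out libraries.

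The rule gave values in every library for genes called in a comparison, for the 6 with the smallest p in each, and for the largest change of each role group among genes without overlap. For the 62 further genes the 3 smallest p were named. Fabp4, Egfl7, Nos3, Vegfb and Cldn5 are shown by library, and Cd36, Lpl, Nrp1, Jag2, Acvrl1 and Klf2 named, after their values were seen. The 44 genes, the role groups and the marker lists were chosen with earlier results of these data known. Among replicates, WT sham 1 and 2 were closest, with 2.16 times the variance of counting error. KO sham 1 and 2 were furthest apart, at 33.3 times. Exons of 8 of the 44 genes (Eng, Egfl7, Nos3, Sox17, Prox1, Angpt1, Dll4 and Notch1) overlap those of another gene, and their shared reads are uncertain. Depth limits precision, and the reads carry no molecular identifiers.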

Additional observations from a re-analysis of the deposited data

How the results depend on the processing

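The number of the 44 genes called depended on the setting. For TAC in WT (0 with the settings reported) it was 1 without a filter on low counts (0.427% of all genes tested), 5 with DESeq2 (3.33%), 10 with limma-voom (6.8%) and 10 without both KO sham replicate 1 and WT TAC replicate 1 (6.18%). For TAC in KO (0) the counts were 3 (2.14%), 5 (13.7%), 34 (63%) and 31 (55.5%) in that order. For KO against WT after sham (0) limma-voom called 13 (14.9%). For KO against WT after TAC (7) the counts were 4 with library totals (22.3%), 18 with DESeq2 (30.2%), 30 with limma-voom (48.2%), 16 when only the groups compared were fitted (30.2%) and 31 without both libraries (53.8%). For the interaction (0) they were 12 with limma-voom (31.8%) and 15 without both libraries (36.1%), shares of the 44 below those of all genes. Leaving out 1 library at a time gave 0 to 8, 0 to 25, 0 to 0, 0 to 23 and 0 to 3 calls in the 5 comparisons, and except after sham the highest count was that without KO sham replicate 1. KO against WT after TAC gave 20 without WT TAC replicate 1. The cause of these differences was not tested. The interaction of Ly6a was -0.62 with all libraries, -0.87 to -0.06 with 1 library left out, and 0.13 (adjusted p = 0.709) without both; its adjusted p ran from 0.288 to 0.924. Library totals in place of TMM moved the all-gene median by 0.17, -0.19, 0.12, -0.24 and -0.40, and that of the 44 genes in the interaction from 0.06 to -0.26. Of 676 values of single genes under alternatives, 566 kept their direction and side of the threshold. With the replicate block, KO against WT after TAC called 9 genes and each other comparison 0. Most same-numbered libraries did not deviate together (r from -0.194 to 0.618 over 14 pairs, 2 above 0.1), so the numbers are not taken to pair the animals. The 2 exceptions were WT TAC 1 with KO sham 1 (r = 0.618), the libraries that stand apart, and WT TAC 3 with KO sham 3 (0.328). Libraries of different number also deviated together, such as WT TAC 3 with KO sham 2 (0.449).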

Other observations

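Ratios of CPM between pairs of the genes were formed after the values were seen and are given with no test. Angpt2 per Angpt1 was 0.527, 0.366 and 0.426 in KO TAC, above every other library: 0.278, 0.0653 and 0.225 in WT TAC, 0.196, 0.132 and 0.208 in KO sham, and 0.16, 0.0803 and 0.151 in WT sham. Flt1 per Kdr, the decoy receptor over the signalling receptor, was 0.488 to 0.53 in WT sham and 0.477 and 0.545 in KO sham replicates 2 and 3. It was 0.792, 0.828 and 1.12 in WT TAC and 1.41, 1.34 and 0.904 in KO TAC. KO sham replicate 1 stood at 1.09. All 6 TAC libraries lay above the 5 other sham libraries.

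Egfl7 per Cdh5, both of them endothelial genes, was 0.357, 0.333 and 0.406 in WT sham and 0.267 and 0.238 in KO sham replicates 2 and 3. It was 0.883, 0.601 and 0.646 in WT TAC and 1.23, 1.35 and 1.47 in KO TAC. KO sham replicate 1 stood at 1.17. Vegfa per Vegfb was 2.91 to 3.14 in WT sham, 2.3 to 3.96 in WT TAC, 3.35 and 3.86 in KO sham replicates 2 and 3, and 6.55, 8.98 and 7.3 in KO TAC. KO sham replicate 1 stood at 8.51. KO TAC replicate 5 held the highest Apold1 (179 CPM) and Cldn5 (131 CPM) of the 12 libraries.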
